A study of Mus musculus with 8 samples.

Results

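The heme enzymes described here are 9 genes, Alas1, Alas2, Alad, Uros, Urod, Cpox, Ppox, Fech and Hmox1, chosen by name from the 54532 genes of the deposited expression table. Each symbol had 1 row, and all 9 passed the filter on low values, a mean of at least 0.5 FPKM (sequenced fragments relative to gene length and library depth) over 8 libraries. The libraries were made from mouse brown fat, a tissue that oxidises fuel to make heat, in 2 groups of 4. The WT group was wild type, with the treatment label control. The OGTBKO group carried a knockout of Ogt limited to brown adipocytes. OGT is the enzyme that attaches the sugar O-GlcNAc to proteins inside cells. Mice were kept at 23 °C on standard chow and were induced from 8 weeks with an agent that the labels spell gomaxifen, and the tissue was taken 2 months later. The protocol text is the same for both groups. No source used here gives the driver of the knockout. Whole tissue freed of white fat was sampled, so cells other than brown adipocytes, which keep Ogt, are in it. The labels number the samples but do not tie each to an animal of its own, so the p-values reflect sample-to-sample spread, which may be technical.

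Heme is an iron-bearing ring that cytochromes, hemoglobin and many oxidases hold in their active sites. Its synthesis starts in mitochondria, where aminolevulinate synthase joins glycine to succinyl-CoA. Alas1 is the form found in most cells and its step usually limits the rate, while Alas2 is the form of red cell precursors. Alad, Uros and Urod then work in the cytosol, Cpox, Ppox and Fech finish the ring and insert iron back in mitochondria, and Hmox1, the inducible heme oxygenase, opens the ring to release iron, carbon monoxide and biliverdin. Brown fat is packed with mitochondria, and the respiratory chain is a large user of heme.

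The stretches of 30 bases below show motifs at the starts of 6 of these genes. They are set side by side because the enzymes of this pathway are made both in all cells and in red cell precursors. RefSeq promoter windows (GRCm38.p6, 250 bases before to 50 after a start) were at hand for 7 of the 9 genes, as 10 windows. Capitals mark the motif, and each stretch runs 5′ to 3′ on the strand of its gene.
Alas1 (NRF1 motif, chr9:106247906-106247935, minus strand): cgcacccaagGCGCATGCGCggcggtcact
Uros (NRF1 motif, chr7:133709323-133709352, minus strand): cggtcacactGCGCCTGCGCgagtcccgcc
Alad (E-box, chr4:62519920-62519949, minus strand): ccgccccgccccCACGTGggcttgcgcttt
Urod (E-box, chr4:116994445-116994474, minus strand): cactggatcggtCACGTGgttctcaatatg
Alas2 (GATA motif, chrX:150547319-150547348, plus strand): ctactttgctttTTATCTttagcagaggcc
Cpox (GATA motif, chr16:58670110-58670139, plus strand): aaagcgcctatcTTATCAgtccaagcacct

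NRF1 is a regulator of nuclear genes for mitochondria, E-boxes are bound by several helix-loop-helix factors, and GATA motifs by the GATA factors of blood cells among others. All motifs were searched on both strands, and that of NRF1 was the capitals of the Alas1 stretch with any base in place of their T. It was found in the windows of Alas1 and Uros, and 4.6% of all 32851 windows hold it. The Alas1 match shown begins at base 30 of the RefSeq transcript, and another Alas1 match begins at base 1. The E-box CACGTG, the same on both strands, was found for Alad, Uros and Urod, against 7.15% of all windows. In Alad it begins 28 bases before the downstream of its starts, with another 105 bases before the upstream one, and in Urod 49 bases before. NGATAA was found for Alas2, Uros and Cpox, against 25.3% of all windows, and its match begins 86 bases before the start in both Alas2 and Cpox, with another Cpox match at base 5. Of 7 further motifs, GGGCGG was found for 6 of the 7 genes (35.7% of all windows), CCAAT for 3 (37.4%), CCACCC for 2 (31.5%), TATAAA for 1 (13.6%), TNAAGGTCA for 1 (1.28%), and TGACNNNGC (12.4%) and TGACGT (7.51%) for 0. The last pair share their opening letters, so a match to one can overlap a match to the other. A gene was counted if any of its windows matched, while the shares are per single window over the whole set, not restricted to that build. Gene counts and window shares therefore compare only roughly. These matches describe letters in the windows and are not binding sites.

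Reads in genes numbered 13393962 to 15897920 per library. Ogt measured 22.5 to 33.1 FPKM in WT and 10.7 to 14.5 FPKM in OGTBKO libraries (log2 change -1.03 ± 0.14, SE; limma adjusted p = 0.00511). The 10 markers of brown adipocytes summed to 3880 to 5853 FPKM in WT and 4361 to 5084 FPKM in OGTBKO libraries. Of these, Cox7a1 was higher (log2 1.14) and Ucp1 (log2 -0.999) and Prdm16 (log2 -0.49) were lower. The Prdm16 call ended in 6 of 8 fits without 1 library and held without WT 1 and OGTBKO 1 (log2 -0.66), and the Ucp1 call ended with no filter on low values (limma adjusted p = 0.0763) and with the library total as denominator (limma adjusted p = 0.0516). Markers of 4 other cell types were also present. The 18 red blood cell markers in the table summed to 399 to 1095 FPKM in WT and 412 to 842 FPKM in OGTBKO libraries, almost all of it hemoglobin, and 7 of the 18 had a mean of at least 0.5 FPKM. The 18 macrophage markers summed to 206 to 396 and 276 to 611 FPKM, and the 8 endothelial markers to 127 to 167 and 152 to 162 FPKM. The 9 skeletal muscle markers summed to 513 FPKM in WT 1 and to 1533 FPKM in OGTBKO 1, to 37.7 FPKM in WT 4, and to between 0.481 and 6.28 FPKM in the other 5 libraries. WT 1 and OGTBKO 1 therefore held muscle RNA, and results in which they stood apart are also given without both. In whole tissue, fewer cells of a type and less RNA per cell cannot be told apart.

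Of the 9 heme enzymes, 1 was higher in OGTBKO tissue, Alad, 0 were lower and 8 did not pass the test (limma, adjusted p under 0.05 over 13171 genes). At an unadjusted p under 0.05, 1 was lower, Alas2, and voom on whole reads called 0 lower. Over all genes tested 15.6% were called, 8.11% as higher and 7.46% as lower, so 1 of 9 is not above the background. By voom, 1214 of the 13171 genes were called higher and 1124 lower. The share of all genes at an unadjusted p under 0.05 is larger than 15.6% and is not given here. Counts at an unadjusted p, here and below, therefore have no background beside them. The 2 groups of libraries did not overlap for 1 of the 9, again Alad, against 22.5% of all genes tested. The median log2 change of the 9 was 0.05, beside -0.0021 over all genes. For 8 of the 9 genes no difference was detectable at this depth and spread.

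**Figure D1:**
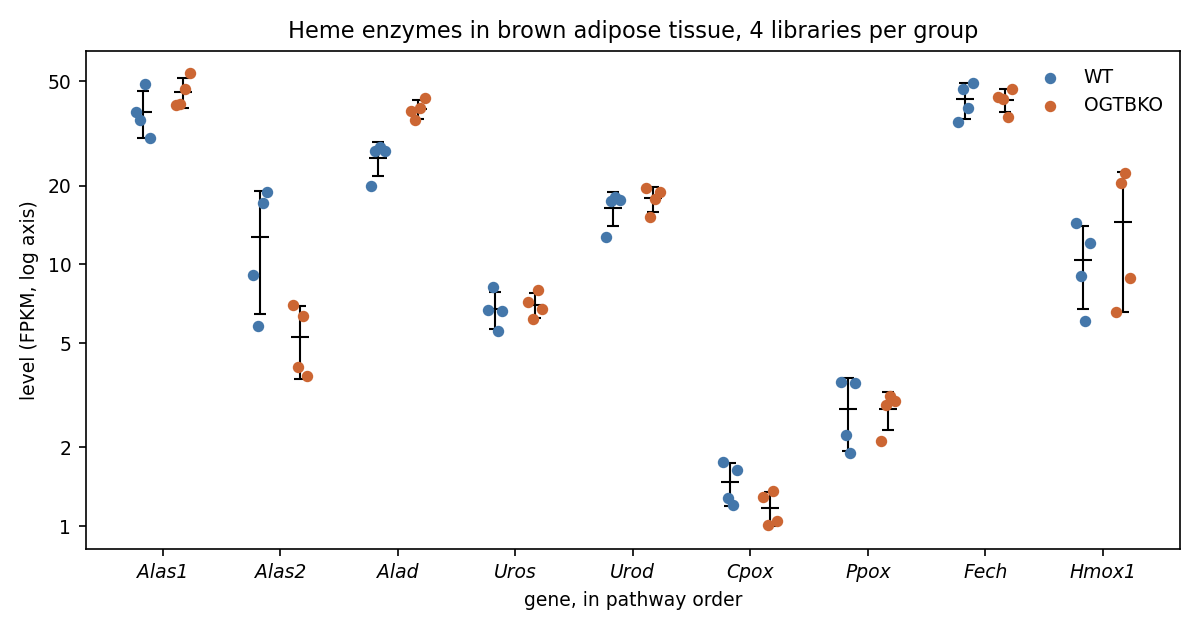
Level of each heme enzyme (FPKM, log axis) in every library, genes in pathway order, with points for libraries and black bars for mean ± SD (n = 4 per group). For Alad all 4 OGTBKO points lie above all 4 WT points, and for the other 8 genes the groups overlap.

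Alad, which joins aminolevulinate molecules into porphobilinogen, was the member with a difference beyond the spread. Alad (ENSMUSG00000028393, chromosome 4, 62509169 to 62519918, minus strand, mm10) measured 19.9, 27.1, 28.2 and 27.1 FPKM in WT 1 to WT 4 and 38.7, 35.6, 39.5 and 43.3 FPKM in OGTBKO 1 to OGTBKO 4. The lowest OGTBKO library stood above the highest WT library, and WT 1 was lower than the rest of its group. The group means of Alad, 25.6 ± 3.84 in WT and 39.3 ± 3.18 FPKM in OGTBKO libraries (SD, n = 4 for this and all later means), put it 1.54 times as high in OGTBKO tissue. On the log2(FPKM + 0.5) scale the change was 0.62 ± 0.13 (SE; 95% interval 0.33 to 0.91, limma adjusted p = 0.0170). Between 515 and 1328 reads per library stood behind these values.

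The Alad call ended in 3 of the 19 other settings, and its direction held in all of them. Without OGTBKO 3 the log2 change was 0.61 (limma adjusted p = 0.0548), and without OGTBKO 4 it was 0.57 (limma adjusted p = 0.0505). Without WT 1 and OGTBKO 1, the libraries with muscle RNA, it was 0.51 (limma adjusted p = 0.0279). When each library was cleared of its trend on GC content and length, 0.43 was left (limma adjusted p = 0.0810). The slope of the log2 level on GC content ran from -0.0139 to -0.00720 per percentage point in WT libraries and from 0.00425 to 0.0214 in OGTBKO libraries. The Alad transcript has 56.2% GC, the highest of the 9 members, which otherwise lie between 46.0% and 53.9%.

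**Figure D2:**
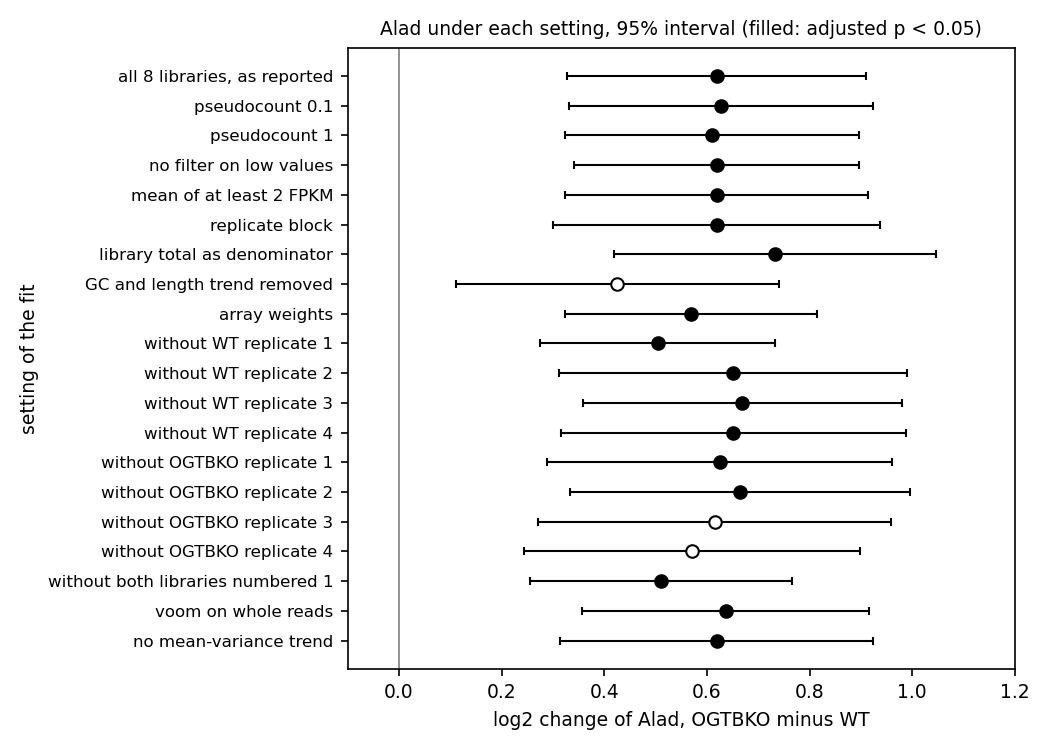
Log2 change of Alad, OGTBKO minus WT, in the reported fit and in 19 other settings, with 95% intervals and filled points where the adjusted p is under 0.05. The points lie between 0.43 and 0.73, and the 3 open ones are the settings without OGTBKO 3, without OGTBKO 4 and after removal of the trend on GC content and length.

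For the gene of the step before, Alas1, no difference passed the test. Alas1 (ENSMUSG00000032786, chromosome 9, 106233455 to 106248654, minus strand) measured 38.3, 35.5, 48.8 and 30.4 FPKM in WT 1 to WT 4 and 40.5, 41.1, 46.9 and 53.7 FPKM in OGTBKO 1 to OGTBKO 4. WT 3 was above 3 of the 4 OGTBKO libraries, while the other 3 WT libraries were below all of them. The means were 38.2 ± 7.72 and 45.6 ± 6.14 FPKM, a log2 change of 0.26 ± 0.16 (SE; 95% interval -0.09 to 0.61, limma adjusted p = 0.281). The interval takes in a fold of 0.938 to 1.53. The call was absent in all 19 other settings (adjusted p between 0.0690 and 0.532). Over the 8 libraries the coding genes whose levels ran most like those of Alas1 were Immp2l (Pearson r = 0.98), Gnptab (r = 0.98) and Ank (r = 0.96). These are the highest of very many such values, over only 8 libraries that share their scaling.

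Alas2, the red cell form of the same enzyme, was read as a blood gene. Alas2 (ENSMUSG00000025270, chromosome X, 150547375 to 150570638, plus strand) measured 9.13, 5.84, 17.2 and 18.8 FPKM in WT 1 to WT 4 and 7.00, 4.06, 6.34 and 3.74 FPKM in OGTBKO 1 to OGTBKO 4. WT 3 and WT 4 stood far above all other libraries, and WT 2 fell within the OGTBKO range. The means were 12.7 ± 6.26 and 5.28 ± 1.63 FPKM, 0.414 times as much in OGTBKO tissue, and the log2 change was -1.10 ± 0.36 (SE; 95% interval -1.90 to -0.30). This did not pass (limma adjusted p = 0.0659). Without WT 2 it did, with a log2 change of -1.41 (limma adjusted p = 0.0356). No other fit that omits 1 library passed. Alas2 was at -0.91 without WT 3 (limma adjusted p = 0.126) and -0.87 without WT 4 (limma adjusted p = 0.144). It was at -0.96 without OGTBKO 4 (limma adjusted p = 0.152). Alas2 made up 14.1% to 38.2% of the summed level of both synthase genes in WT libraries and 6.51% to 14.7% in OGTBKO libraries. Alas2 lies within the span of Apex2, a gene on the opposite strand with a mean of 1.41 FPKM. Whether counting used strand is not given in the sources used here, so reads of the 2 genes may have been mixed where their exons meet.

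Hemoglobin varied between libraries without separating the groups. The summed level of Hba-a1, Hba-a2, Hbb-bs and Hbb-bt, the adult globin genes, was 680, 391, 920 and 1082 FPKM in WT 1 to WT 4 and 741, 453, 834 and 406 FPKM in OGTBKO 1 to OGTBKO 4. The groups overlapped almost fully, with a mean log2 difference of -0.31 (exact two-sided permutation p = 0.486). Of the 7 red blood cell markers tested, 0 were called by limma or by voom, beside 15.6% called by limma over all genes. At an unadjusted p under 0.05 there were 2, Hbb-bt among them. The share of all genes under that p is larger than 15.6% and is not given here. Each of the 4 globin genes lay lower in OGTBKO tissue by its fitted value: Hbb-bt at -0.77 (limma adjusted p = 0.126), Hba-a2 at -0.69 (limma adjusted p = 0.225), Hba-a1 at -0.18 and Hbb-bs at -0.16. The signs of the last 2 turned in some settings. The paired globin genes are near-identical copies, so reads can be shared between them. Most other red cell markers, Slc4a1, Klf1 and Gata1 among them, did not reach a mean of 0.5 FPKM. The 7 of 18 that did include the 4 globin genes.

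Per unit of summed hemoglobin, Alas2 was lower in all OGTBKO libraries, by an amount that depended on which globin gene it was set against. For each 1000 FPKM of hemoglobin, WT 1 to WT 4 had 13.4, 14.9, 18.7 and 17.4 FPKM of Alas2, and OGTBKO 1 to OGTBKO 4 had 9.44, 8.95, 7.60 and 9.21 FPKM. The groups did not overlap, and the means were 16.1 ± 2.37 and 8.80 ± 0.822, a mean log2 difference of -0.87 (exact two-sided permutation p = 0.0286, the smallest that 4 against 4 allows). This ratio was chosen after its values were seen. The sum consists mostly of Hba-a1 and Hbb-bs, and against these alone the difference was -0.99 and -1.01, without overlap. Against Hbb-bt alone it was -0.39, and the groups did not overlap but almost touched, with 179 to 237 FPKM of Alas2 per 1000 FPKM in WT and 149 to 177 in OGTBKO libraries. Against Hba-a2 alone it was -0.48 and the groups overlapped (exact two-sided permutation p = 0.114), with 62.5 to 122 and 58.9 to 73.1. With any single library left out the difference in Alas2 per hemoglobin lay between -0.95 and -0.79 with an exact permutation p of 0.0571, the smallest possible then. Among the 3 coding genes whose levels ran most like those of Alas2 over the 8 libraries were Hbb-bt (Pearson r = 0.98) and Traf3 (r = 0.98). The r values for the other globin genes were 0.88 for Hba-a2, 0.76 for Hba-a1 and 0.73 for Hbb-bs.

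**Figure D3:**
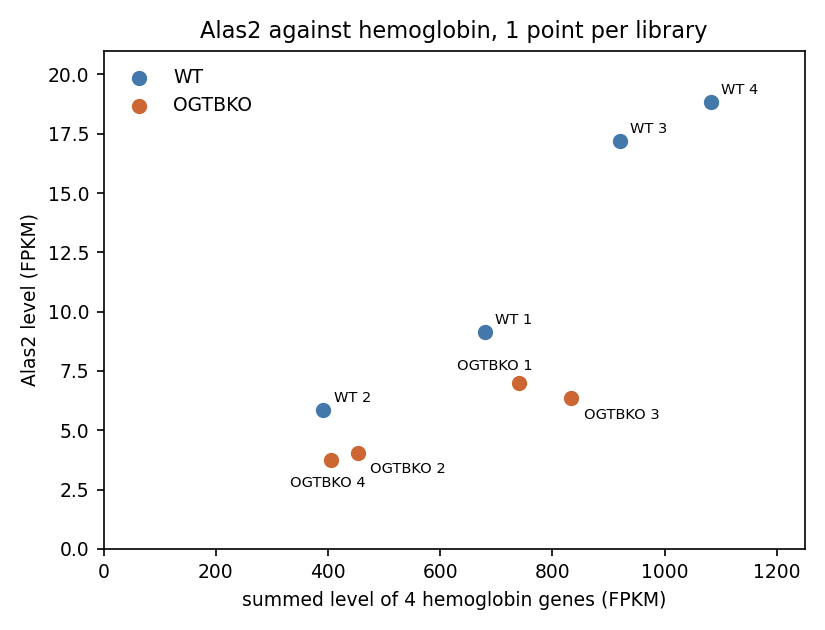
Alas2 level against the summed level of 4 hemoglobin genes (both in FPKM), 1 point per library, WT in blue and OGTBKO in orange. At like summed hemoglobin levels the OGTBKO points lie below the WT points, as at WT 3 (920 FPKM of hemoglobin, 17.2 FPKM of Alas2) and OGTBKO 3 (834 and 6.34 FPKM).

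The middle of the pathway did not differ between the groups beyond the spread. Uros, which closes the ring (chromosome 7, 133686243 to 133710072, minus strand), measured 6.70, 8.22, 5.57 and 6.62 FPKM in WT and 7.20, 6.16, 8.01 and 6.73 FPKM in OGTBKO libraries 1 to 4 (log2 0.05, 95% interval -0.24 to 0.35). Urod, which removes carboxyl groups from the side chains (chromosome 4, 116989965 to 116994413, minus strand), measured 12.8, 17.4, 18.0 and 17.7 FPKM in WT and 19.6, 15.2, 17.8 and 18.9 FPKM in OGTBKO libraries (log2 0.12, 95% interval -0.19 to 0.42). In both genes the values of the groups were interleaved, and WT 1 was the lowest library for Urod as it was for Alad. Without WT 1 and OGTBKO 1 the Urod change was -0.039.

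Cpox and Ppox, the oxidases that act in mitochondria, had the lowest mean FPKM of the 9. Cpox (chromosome 16, 58670292 to 58717636, plus strand) measured 1.77, 1.28, 1.21 and 1.63 FPKM in WT and 1.30, 1.01, 1.36 and 1.05 FPKM in OGTBKO libraries 1 to 4 (log2 -0.23, 95% interval -0.55 to 0.09, limma adjusted p = 0.300). Ppox (chromosome 1, 171275990 to 171281186, minus strand) measured 3.56, 2.23, 1.90 and 3.52 FPKM in WT and 2.12, 2.90, 3.15 and 3.01 FPKM in OGTBKO libraries (log2 0.02, 95% interval -0.42 to 0.47). WT 1 and WT 4 were the high libraries of the WT group for both genes. As few as 85 reads for Cpox and 91 for Ppox stood behind a value. The ends of Uros, Cpox and Ppox overlap genes on the opposite strand, Bccip by 740 bases, Gpr15 by 204 and B4galt3 by 907, of which Bccip had a mean of 12.1 FPKM, Gpr15 of 0.0609 FPKM and B4galt3 of 1.26 FPKM.

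Fech, the ferrochelatase that inserts iron as the last step, had the same mean level in both groups. Fech (ENSMUSG00000024588, chromosome 18, 64456550 to 64489066, minus strand) measured 35.0, 46.7, 39.5 and 49.5 FPKM in WT 1 to WT 4 and 43.7, 43.0, 36.5 and 46.6 FPKM in OGTBKO 1 to OGTBKO 4. The means were 42.7 ± 6.66 and 42.4 ± 4.28 FPKM, and the 95% interval of the log2 change ran from -0.30 to 0.30, a fold of 0.810 to 1.23. A rise or fall within that interval was not detectable at this spread.

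In order of level, Fech and Alas1 led in WT tissue, followed by Alad, Urod, Alas2, Hmox1, Uros, Ppox and Cpox. FPKM is relative to the deposited gene length, 1751 bases for Hmox1 and 6661 for Cpox. The order thus also rests on those lengths, and levels of different genes can be compared only roughly. In WT tissue the values of neighbours in that order did not overlap between Alas1 and Alad, Alad and Urod, Uros and Ppox, or Ppox and Cpox. They overlapped between Fech and Alas1, and from Urod through Alas2 and Hmox1 to Uros. In OGTBKO tissue Alad followed Alas1 and Fech, and its values overlapped those of Fech. The mean of Alas2 lay between those of Uros and Ppox there, with values that overlapped those of Uros, and its change between the groups did not pass the test.

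**Figure D4:**
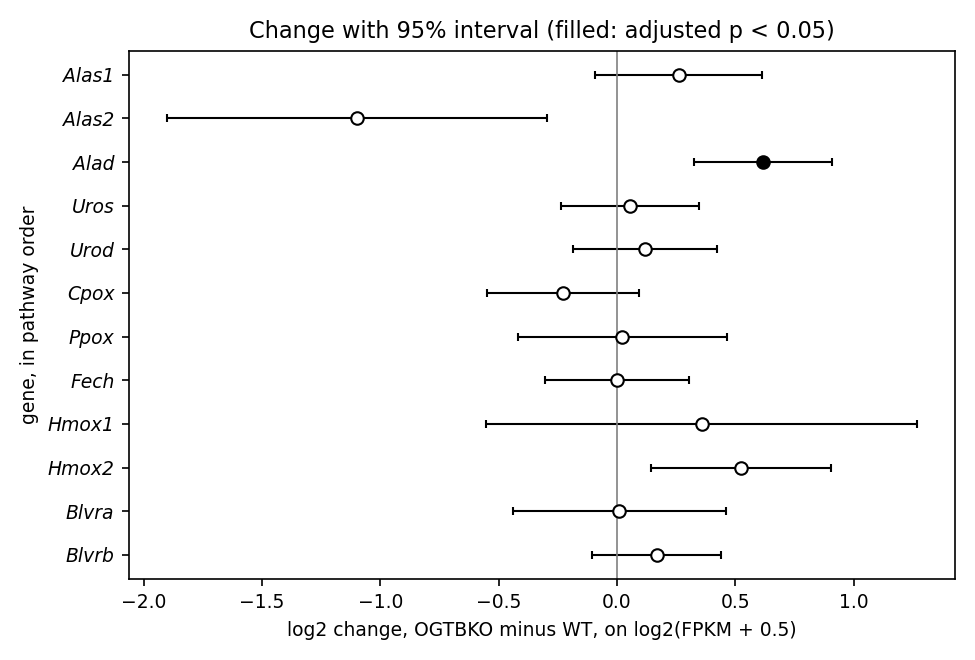
Log2 change, OGTBKO minus WT on the log2(FPKM + 0.5) scale, of the 9 heme enzymes and of Hmox2, Blvra and Blvrb, with 95% intervals. Alad is the filled point (adjusted p under 0.05), Alas2 has a wide interval from -1.90 to -0.30, and that of Hmox1 runs from -0.55 to 1.27.

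Hmox1 was the member that varied most among OGTBKO libraries. Hmox1 (ENSMUSG00000005413, chromosome 8, 75093621 to 75100589, plus strand) measured 14.5, 9.02, 6.10 and 12.1 FPKM in WT 1 to WT 4 and 6.61, 20.5, 22.3 and 8.86 FPKM in OGTBKO 1 to OGTBKO 4. OGTBKO 2 and OGTBKO 3 stood above all WT libraries, and OGTBKO 1 and OGTBKO 4 lay within the WT range. The means were 10.4 ± 3.65 and 14.6 ± 7.99 FPKM, a log2 change of 0.36 ± 0.40 (SE; 95% interval -0.55 to 1.27, limma adjusted p = 0.584). Without WT 1 and OGTBKO 1 the log2 change was 0.83 (limma adjusted p = 0.169), and without OGTBKO 3 it was 0.10.

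Macrophages take up spent red cells and make much Hmox1, and their markers varied between the same libraries. The 18 macrophage markers summed to 396, 312, 206 and 366 FPKM in WT 1 to WT 4 and 276, 611, 505 and 526 FPKM in OGTBKO 1 to OGTBKO 4. The lowest WT library and the lowest OGTBKO library for these markers, WT 3 and OGTBKO 1, were also the lowest of their groups for Hmox1, while OGTBKO 4 was high for the markers and not for Hmox1. The coding genes whose levels ran most like those of Hmox1 were Itga5, Itgam, an integrin of myeloid cells, and Sept11, each with a Pearson r of 0.98 over the 8 libraries. Itgam measured 1.54, 1.08, 0.620 and 1.12 FPKM in WT and 0.546, 2.01, 2.07 and 1.001 FPKM in OGTBKO libraries 1 to 4. Of the 15 macrophage markers tested, limma called 0 higher and 1 lower, beside 8.11% higher and 7.46% lower over all genes. At an unadjusted p under 0.05, 3 were higher and 2 lower, and voom called 0 higher and 2 lower. More of all genes pass an unadjusted p than were called, and that share is not given here. The limma call was Cd163, the scavenger receptor for hemoglobin bound to haptoglobin. It fell from 6.38 ± 1.77 to 2.92 ± 1.41 FPKM with overlapping groups (limma adjusted p = 0.0413). The Cd163 call was lost in 6 of 8 fits that each omit 1 library. The part of these cells in the Hmox1 values was not tested.

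Of the other enzymes of heme breakdown, Hmox2, Blvra and Blvrb, limma called 0, beside 15.6% over all genes. At an unadjusted p under 0.05 there was 1, Hmox2, which voom called too. The share of all genes under that unadjusted p is larger than 15.6% and is not given here. Hmox2, the constitutive heme oxygenase, measured 8.30, 9.99, 11.6 and 15.1 FPKM in WT 1 to WT 4 and 17.6, 14.0, 15.9 and 16.8 FPKM in OGTBKO 1 to OGTBKO 4. WT 4 alone reached the OGTBKO range. The log2 change was 0.52 ± 0.17 (limma adjusted p = 0.0654), and without WT 4 it was called at 0.67 (limma adjusted p = 0.0285). It was 0.35 (limma adjusted p = 0.178) without WT 1 and OGTBKO 1, the lowest and the highest library for Hmox2. By voom on whole reads the Hmox2 log2 change had an adjusted p of 0.0447. Hmox1 took 34.5% to 63.5% of the summed level of both oxygenases in WT and 27.3% to 59.5% in OGTBKO libraries. The biliverdin reductases Blvra (log2 0.01, 95% interval -0.44 to 0.46) and Blvrb (log2 0.17, 95% interval -0.10 to 0.44) did not pass.

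Among genes for heme and porphyrin transport and for the handling of Alas1, 1 was higher, 3 were lower and 15 of 19 tested did not pass. The median log2 change was 0.03, and 15.6% were called over all genes. Slc48a1, a transporter that lets heme out of lysosomes, rose from 21.3 ± 3.28 to 35.4 ± 1.65 FPKM (log2 0.73 ± 0.12, limma adjusted p = 0.00872). Its 4 WT values, 23.2, 17.6, 24.8 and 19.7 FPKM, all lay below its 4 OGTBKO values, 37.2, 34.8, 36.2 and 33.4 FPKM. Flvcr1, known as an exporter of heme and transporter of choline, fell from 6.64 ± 1.53 to 3.30 ± 0.396 FPKM (log2 -0.89, limma adjusted p = 0.0106). These calls held in all 19 other settings. The mitochondrial transporter Abcb8 fell by 0.76 on the log2 scale (limma adjusted p = 0.0178), a call that ended in 4 settings and held without WT 1 and OGTBKO 1, at -0.99. Slc25a38, which brings glycine for heme into mitochondria, measured 4.98 ± 1.42 and 4.98 ± 0.622 FPKM, and Pgrmc2, a carrier of heme to the nucleus, 25.4 ± 5.51 and 24.9 ± 2.83 FPKM.

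Of 18 iron genes tested, 3 were higher, 2 lower and 13 did not pass, with a median of -0.05, beside 8.11% higher and 7.46% lower over all genes. The transferrin receptor Tfrc, which brings iron into cells, measured 6.53, 10.4, 7.27 and 7.06 FPKM in WT 1 to WT 4 and 20.4, 48.7, 33.9 and 101 FPKM in OGTBKO 1 to OGTBKO 4. The OGTBKO libraries were spread over a wide range, all of it above WT. Red cell precursors are also rich in Tfrc, and the part of such cells in its values was not tested. Ireb2, an iron sensor that binds transcripts such as those of Tfrc and Alas2, fell by 0.46 (limma adjusted p = 0.0131) and the ferroxidase Cp by 0.70 (limma adjusted p = 0.0314). The ferrireductase Steap3 (log2 0.37) and the iron chaperone Pcbp1 (log2 0.33) rose. Omitting 1 library at a time ended the Cp call in 6 of 8 fits and those of Steap3 and Pcbp1 in 7 each, and the Ireb2 call ended in 3 other settings. Without WT 1 and OGTBKO 1 the calls of Steap3 and Pcbp1 ended. The importers of iron into mitochondria, Slc25a37 (log2 0.09, limma adjusted p = 0.753) and Slc25a28 (log2 0.46, limma adjusted p = 0.0664), did not pass.

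Iron-sulfur cluster assembly, whose mitochondrial part draws on the same iron as Fech, had 4 genes higher and 0 lower. Of 15 tested, 11 did not pass, and the median was 0.31. Over all genes tested 8.11% were called higher and 7.46% lower. At an unadjusted p under 0.05, 8 were higher and 3 lower. Voom called 5 higher and 0 lower, beside 1214 higher and 1124 lower of all 13171 genes. The scaffold Iscu rose from 35.6 ± 4.58 to 68.8 ± 6.09 FPKM (log2 0.94, limma adjusted p = 0.00383), Nfu1 by a log2 of 0.81, Ciao1 by 0.57 and the ferredoxin reductase Fdxr by 0.70. The Fdxr call was lost in 6 of 8 fits that omit 1 library, and without WT 1 and OGTBKO 1, while those of Iscu, Nfu1 and Ciao1 held in all 19 other settings. Of 12 genes for heme a and for cytochromes, limma and voom called 0 in either direction, with a median of -0.09. At an unadjusted p under 0.05, 2 were higher and 2 lower. For both lists, the share of all genes under that unadjusted p is larger than the share called and is not given here.

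**Figure D5:**
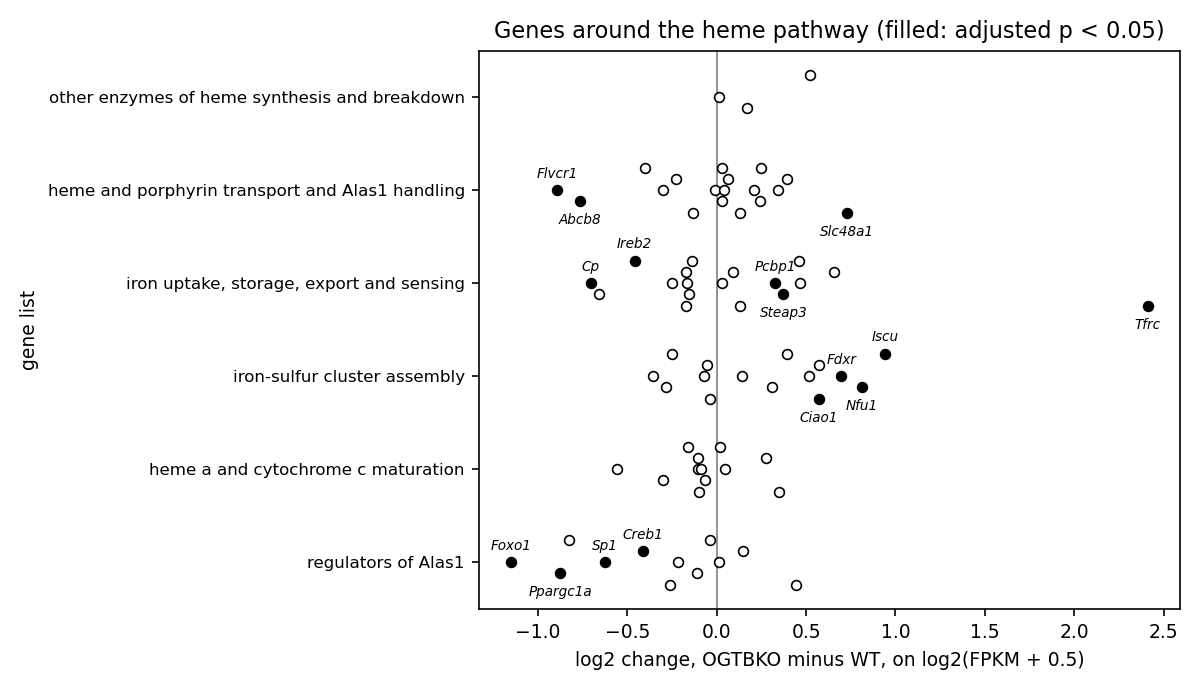
Log2 change (OGTBKO minus WT, on log2(FPKM + 0.5)) of the tested genes reported here in 6 lists around the heme pathway, 1 row per list, 1 point per gene, filled and named where the adjusted p is under 0.05. Tfrc lies farthest to the right at 2.41, and Foxo1 farthest to the left at -1.15.

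Of 12 regulators known to act on Alas1, 0 were higher, 4 were lower and 8 did not pass, with a median of -0.24. Over all genes tested the shares were 8.11% higher and 7.46% lower. At an unadjusted p under 0.05, 0 were higher and 5 lower, as by voom. More of all genes pass an unadjusted p than were called, and that share is not given here. Ppargc1a, the coactivator that raises Alas1 in liver and brown fat, fell from 13.6 ± 2.19 to 7.17 ± 0.878 FPKM (log2 -0.87, limma adjusted p = 0.00628). The transcription factor Foxo1 fell from 14.9 ± 2.47 to 6.46 ± 1.09 FPKM (log2 -1.15, limma adjusted p = 0.00391). Sp1 fell by 0.62 and Creb1 by 0.41, the latter a call lost in 6 of 8 fits that omit 1 library, and without WT 1 and OGTBKO 1. The list mixes coactivators and repressors, so its counts set no direction for Alas1. Alas1 itself, as given above, had a log2 change of 0.26 that did not pass (limma adjusted p = 0.281). Whether Alas1 followed these regulators was not tested. The heme-binding clock repressor Nr1d1 measured 12.6 ± 5.41 and 16.5 ± 2.96 FPKM (log2 0.44, limma adjusted p = 0.280). Nr1d2, of the same list, went the other way at a log2 of -0.83 (limma adjusted p = 0.0738). Neither passed.

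For Hmox1, the repressor Bach1, which heme itself inactivates, measured 6.46, 7.27, 7.15 and 6.51 FPKM in WT 1 to WT 4 and 3.90, 4.68, 3.60 and 4.59 FPKM in OGTBKO 1 to OGTBKO 4. It was lower in all OGTBKO libraries (log2 -0.65 ± 0.11, limma adjusted p = 0.00844), a call that held in all 19 other settings. Its partner Mafg fell by 0.52 (limma adjusted p = 0.0157), a call that ended with the library total as denominator (limma adjusted p = 0.150) and in 1 further setting. The activator Nfe2l2 (log2 0.08, 95% interval -0.19 to 0.36) and its inhibitor Keap1 (log2 -0.14, 95% interval -0.48 to 0.19) did not pass. In the list of Nrf2 and Bach1 targets and regulators, 2 were higher, 2 lower and 14 of 18 tested not past the test. The median was 0.15, and over all genes tested 8.11% were called higher and 7.46% lower. Those lower were Bach1 and Mafg themselves. Those higher were Gstm1, a glutathione transferase of a family of close copies, by a log2 of 1.29, and Osgin1, from 0.401 ± 0.312 to 3.39 ± 0.990 FPKM, by 2.15. The size of the Osgin1 change rests on the pseudocount, since as few as 2 reads stood behind a WT value: it was 1.65 with a pseudocount of 1, 3.03 with 0.1 and 3.52 by voom. Of 20 tested enzymes and proteins that hold or scavenge heme, 2 were higher, Nos3 (log2 0.78) and Cygb (log2 0.63). Of the same 20, 2 were lower, haptoglobin (Hp, log2 -0.83) and Cd163, beside 15.6% called in either direction over all genes. Without WT 1 and OGTBKO 1 Cygb stayed called at 0.46, and without the trend on GC content and length its call ended at 0.39. Nos3 is made by endothelial cells, of whose 8 markers 1 was higher, Cdh5 (log2 0.35, limma adjusted p = 0.0413, a call lost in 7 of 8 fits that omit 1 library and without WT 1 and OGTBKO 1), and the part of these cells in the Nos3 values was not tested.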

How the data were processed

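The authors deposited 1 table of FPKM values for 54532 genes in 8 libraries, made with HISAT2 2.0.5 and featureCounts 1.5.0-p3 of Subread on mm10, per the submitters' processing notes. No source used here gives the annotation release or strand setting. The deposited table also gives a gene length in bases as another value, per the file headers. Multiplied by that length, 100% of the values of each library were whole multiples of 1 read (tolerance 0.001), which gave the reads per gene, 13393962 to 15897920 per library. The FPKM denominators were 0.790 to 1.13 times those totals, so the values were already scaled between libraries. Libraries of a group differed by a chi-square of 16.0 to 99.6 per degree of freedom, so none was counted as a copy. Of the gene identifiers, 99.9% are in GENCODE M21 and 98.3% have its coordinates. GC content is that of the longest M21 transcript, which 99.9% of the genes tested had.

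The groups were compared with limma 3.58.1 (R 4.3.3) on log2(FPKM + 0.5), eBayes with a trend, two-sided, without covariates, for the 13171 genes with a mean of at least 0.5 FPKM. Benjamini-Hochberg adjustment ran over all of these, with a threshold of 0.05. Errors beside means are SDs over 4 libraries. Single values per library were compared by an exact permutation test over 70 assignments. On reads simulated for this comparison over 13171 genes, 29.9% of 1.5-fold, 59.7% of 2-fold and 86.4% of 4-fold changes were recovered, with 4 false calls. The simulation changed 67, 67 and 66 genes by these folds, far fewer than the 2050 called in the data. The recovered shares therefore need not hold for the data. No count model was the main test, since the values are FPKM. The members, lists and tests were chosen with earlier results of these data known. Genes named were the members, a fixed set of pathway genes, up to 6 called genes of each list and the 3 coding genes of at least 1 FPKM most like Alas1, Alas2 and Hmox1. A symbol in several rows took the row with the highest mean. Some genes that the rule names are not reported here, and the counts of their lists include them.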

Additional observations from a re-analysis of the deposited data

Results flagged for a closer look

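Within a group of 4 libraries, a single library stood apart from the other 3 in 9 of 142 groups of values checked, where chance gives about 1 in 20. In WT 1 Alad was at 19.9 FPKM (27.1 to 28.2 in the other WT libraries), Urod at 12.8 FPKM (17.4 to 18.0) and Cygb at 4.08 FPKM (5.64 to 5.84). WT 1 also held the skeletal muscle markers, at a summed 513 FPKM against 0.481 to 37.7. In WT 3 Blvra was at 13.7 FPKM (7.61 to 8.63). In OGTBKO 1 Abcb8 was at 18.0 FPKM (13.8 to 14.4), Fdxr at 5.71 FPKM (5.22 to 5.29), Prdm16 at 3.05 FPKM (2.04 to 2.20) and the skeletal muscle markers at a summed 1533 FPKM (1.01 to 6.28). Of the 9, 4 lay in WT 1 and 4 in OGTBKO 1, the libraries with muscle RNA. The Alad difference without both is 0.51 on the log2 scale.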

How the results depend on the processing

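The count of genes called, 2050 with 1068 higher and 982 lower, was 1229 with no filter on low values, 888 with the replicate block, 1237 (987 higher and 250 lower) with the library total as denominator, 3516 with array weights, and 692 (without OGTBKO 3) to 2122 (without WT 3) with a single library left out. The count of heme enzymes called higher was 0 with the GC and length trend removed and 0 to 1 with a library left out. That of heme enzymes called lower was 0 to 1 with a library left out. The block rests only on shared numbers: deviations of same-numbered libraries correlated at 0.22, 0.17, 0.01 and -0.01. Under the block Alad kept its call (adjusted p = 0.0462), and among other named genes Abcb8, Ireb2, Steap3, Pcbp1, Fdxr, Cygb, Creb1, Mafg, Prdm16 and Cdh5 lost theirs. Hemoglobin stayed without a call in all alternatives, between -0.60 and -0.11 with a library left out. Alas2 per hemoglobin was -0.98 without both libraries numbered 1 (exact permutation p = 0.1, the smallest possible then).

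Values near 0 that never passed changed sign. With the GC and length trend removed these were Urod (-0.011), Ppox (-0.070), Fech (0.050), Slc25a38 (-0.14) and Itga5 (-0.0089). With the library total they were Fech (0.11) and Pgrmc2 (0.11), and with array weights Uros (-0.037), Slc25a38 (-0.12) and Hbb-bs (0.037). Without both libraries numbered 1 they were Urod (-0.039) and Blvra (-0.00162), and with voom on whole reads Fech (0.0093) and Pgrmc2 (0.000674). With a single library left out, Uros lay between -0.028 and 0.15, Ppox between -0.12 and 0.13 and Fech between -0.091 and 0.075. Blvra lay between -0.10 and 0.19, Slc25a37 between -0.037 and 0.19, Slc25a38 between -0.14 and 0.17, Pgrmc2 between -0.17 and 0.093 and Hba-a1 between -0.49 and 0.019. The cause of these changes was not tested. Over the 9 heme enzymes, 150 alternative values kept direction and side of the threshold, 16 changed sign, 3 lost the call and 1 gained it. The voom fit, the fit without a mean-variance trend, the fits without both libraries numbered 1 and the single globin denominators were chosen after seeing the data. The planned edgeR and DESeq2 fits were not run, since the deposited values are FPKM, and voom was run in their place. Depth limits Cpox and Ppox most.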
